A study of Caenorhabditis elegans with 18 samples.

Results

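The histone genes of *C. elegans* were followed in poly(A)-selected RNA of whole, synchronized L4 larvae (the last larval stage). Members were all rows with a WormBase symbol of *his* and a number, plus *htz-1*, which gave 73 of the 46726 genes counted. They comprised 8 replacement genes (*htz-1*, *his-24*, *his-35*, *his-69*, *his-70*, *his-71*, *his-72* and *his-74*) and 65 genes taken as replication-dependent because they carry no replacement name. The animals came from 6 genotypes with 3 biological replicates each, lettered A, B and C. These were wild type (N2), a deletion of the homeodomain transcription factor *ceh-14* (*ch3*), a deletion of the RNA-binding protein *fust-1* (*csb21*, marked with a *myo-2*::GFP insertion), a deletion of the RNA-binding protein *tdp-1* (*csb38*, marked with a *myo-3*::GFP insertion), and the double mutants *fust-1; ceh-14* on the one hand and *tdp-1; ceh-14* on the other, which carry the same alleles. Each mutation is present in all cells of the animal, and each single mutant is 1 allele.

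Core histones (H2A, H2B, H3 and H4) wrap DNA into nucleosomes, and the linker histone H1 binds between them. Most core histone mRNAs of animals are made in S phase, and their 3′ ends form a stem-loop in place of a poly(A) tail. Replacement histones are made outside S phase from genes that usually have introns and give polyadenylated mRNA. A library built on poly(A) selection therefore captures the replication-dependent class poorly by design, and a level of such a gene here is a level of its poly(A)-selected RNA and not of its total mRNA. No stem-loop could be sought in the sequences here.

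The libraries held 19556372 to 119814176 counts in genes, with a median of 50634860. Each deleted gene was lowest in the genotypes that lack it. *fust-1* stood at 41.7 ± 7.92 normalized counts (CPM, counts scaled to a common library total with TMM factors, given as mean ± SD, n = 3) in *fust-1* and 156 ± 13.8 in wild type. *tdp-1* stood at 14.9 ± 1.75 CPM in *tdp-1* and 93.7 ± 15.3 in wild type, and *ceh-14* at 1.81 ± 0.330 in *ceh-14* and 5.54 ± 0.269 in wild type. Every one of 25 marker genes of germline, sperm, oocyte, muscle, intestine, neuron, epidermis and pharynx had counts in every library. *col-19*, a collagen best known from the adult cuticle, stood between 2172 and 4437 CPM in all 18 libraries. The libraries *fust-1* C and *tdp-1; ceh-14* C stood apart in their markers. They had the lowest muscle sums (809.8 and 647.7 CPM, where the other 16 libraries held 1332 to 3403). Their epidermis sums were the highest (4438 and 3995 CPM), nearly all from *col-19* (4437 and 3992 CPM). The other epidermis marker, *dpy-7*, had its lowest level of all libraries in the first (0.850 CPM). In the second it reached 3.40 CPM, against a median of 2.545 over all libraries. Fewer cells of a type and less RNA per cell cannot be told apart in such bulk samples.

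Per library, 0.0703% to 0.0985% of all gene counts fell on histone genes, 825362 counts in all. The replacement class supplied most of them. Its 8 genes held 80.1% of the histone counts over all libraries (70.7% to 84.3% per library), and the 65 replication-dependent genes held 19.9%. The gene model separated the counts further than the name did. The 9 members annotated with an intron and with UTRs on both sides held 91.5% of the histone counts (86.2% to 94.6% per library), and the 64 single-exon members without annotated UTRs held 8.50%. Of the 9 with an intron, 6 are replacement genes (*htz-1*, *his-24*, *his-35*, *his-71*, *his-72* and *his-74*) and 3 belong by name to the replication-dependent class (*his-37*, *his-41* and *his-57*). Those 3 held 11.95% of the histone counts, and the 62 single-exon replication-dependent genes held 7.91%. The replacement genes *his-69* and *his-70* are annotated as single exons.

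**Figure D1:**
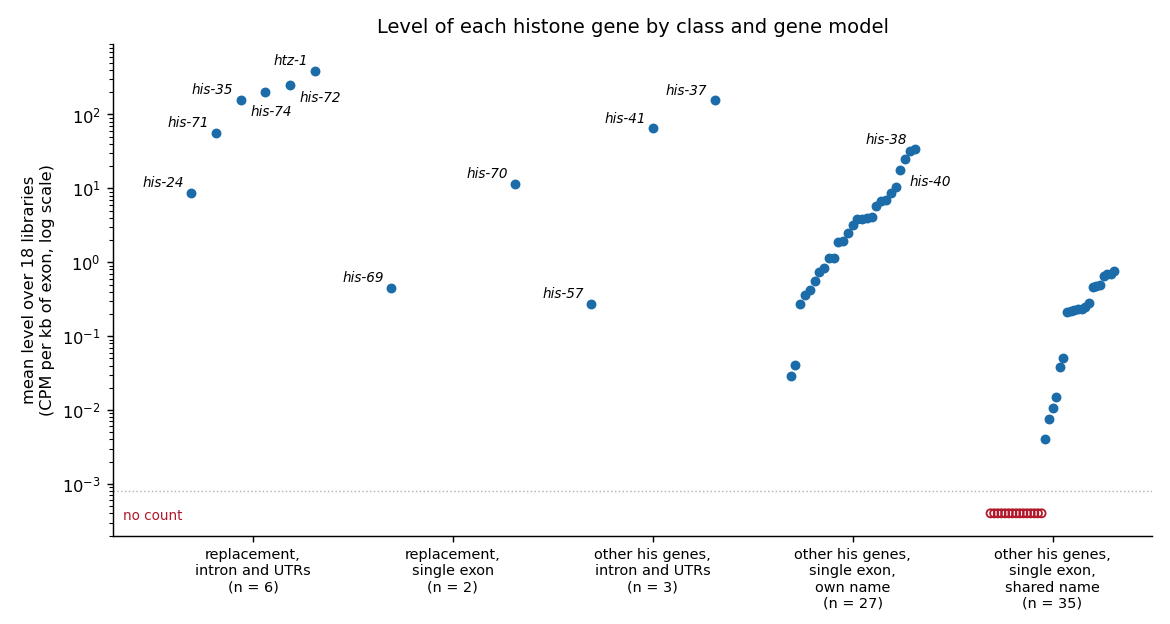
Mean level of each of the 73 histone genes over 18 libraries, in CPM per kb of exon on a log axis, by class, gene model and whether the gene shares its Ensembl name with another member. Each point is 1 gene and open circles below the dotted line are the 15 genes with no count in any library. The genes with an intron and UTRs lie highest apart from *his-24* and *his-57*, and every gene without a count lies in the group with shared names.

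Near-identical copies can limit what is seen of the single-exon class. Worm histone genes occur in repeated clusters whose coding sequences are almost the same, and HTSeq by default leaves a read that fits more than 1 position out of the gene counts, although the mode used is not given in the sources used here. In all, 36 members share their Ensembl name with at least 1 other member, in 14 groups of 2 to 4 copies, and this sharing was used here as the mark of a near-identical copy. The 35 single-exon genes among them held 2174 counts over all libraries, against 63081 for the 27 single-exon replication-dependent genes with a name of their own. No gene with a shared name exceeded 276 counts in total. Reads at more than 1 position made up 5.89% to 12.2% of records per library, and how many of them came from histone genes was not tested. No sequences were compared. The parts of copies and of poly(A) selection in the low counts cannot be told apart here.

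The members with no count in any library, 15 in all, were *his-9*, *his-10*, *his-14*, *his-19*, *his-20*, *his-21*, *his-22*, *his-27*, *his-28*, *his-49*, *his-50*, *his-51*, *his-52*, *his-53* and *his-54*, and every one has a shared name. Of them, 12 make up 4 whole copy groups, 1 for each core histone (H2A *his-19*, *his-21*, *his-51* and *his-53*, H2B *his-20*, *his-22*, *his-52* and *his-54*, H3 *his-27* and *his-49*, H4 *his-28* and *his-50*). The other 3 lie in groups in which another copy was counted (*his-25*, 276 counts, and *his-26*, 62 counts). A count of 0 over all libraries allows a level of up to 0.00308 CPM for uniquely placed reads, counting error only, and sets no limit on the RNA of a repeated gene. The cluster of 6 genes at V:8847393-8854053 (WBcel235), *his-49* to *his-54*, was without a count throughout, and 6 of the 8 genes of the neighbouring cluster at V:8889488-8898539 were too.

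Levels of different genes were compared per kb of exon, as means over the 18 libraries. *htz-1* (IV:4446216-4446999), which encodes the H2A.Z variant found around transcription start sites, was highest at 389 CPM per kb. Next came the H3.3 genes *his-72* (III:12367475-12369050) at 248 and *his-74* (V:12659704-12660330) at 199.8 CPM per kb. H3.3 is the H3 variant placed outside replication, and worms have several genes for it. The H2A gene *his-35* (159 CPM per kb) and the H4 gene *his-37* (157 CPM per kb) were almost level, and the H2B gene *his-41* (65.7) and the H3.3 gene *his-71* (56.4) followed.

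The genes *his-35*, *his-41* and *his-37* lie side by side within 2949 bases at V:9544659-9547607. All 3 are annotated with an intron and UTRs, and together they held 176963 counts. *his-37* and *his-41* together gave nearly all of the replication-dependent counts that did not come from single-exon genes. The third gene of that kind, *his-57* (H2A), had 188 counts in total and shares its name with *his-47* and *his-65*. *his-37* overlaps *nstp-10* on the opposite strand and *his-41* overlaps *C50F4.6* on the same strand, and the sources do not say whether strand was used in counting.

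Among the single-exon genes *his-38* (H4, X:7309564-7309875) and *his-40* (H3, X:7310110-7310520), which are transcribed away from each other with 234 bases between them, stood at 34.1 and 17.7 CPM per kb. *his-68* (H2A) stood at 31.8 and *his-60* (H4) at 25.0 CPM per kb. The replacement gene *his-70* (H3.3, III:4059715-4060119) stood at 11.5 CPM per kb, *his-59* (H3) at 10.5, and the linker histone gene *his-24* (X:14490094-14491119) at 8.77. Other named single-exon genes were lower, among them *his-61* (H2A, 8.72 CPM per kb), *his-48* (H2B, 6.99), *his-62* (H2B, 6.84), *his-3* (H2A, 4.09) and *his-63* (H3, 3.84). *his-69*, the remaining H3.3 gene, was at 0.455 CPM per kb with 175 counts in all. The single-exon replication-dependent genes had a median of 0.319 CPM per kb and the replacement genes one of 107.8. *his-60*, *his-61*, *his-62* and *his-59* lie in 1 cluster at IV:7485834-7488659 that held 18444 counts, the most of any cluster made up of single-exon genes.

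The summed level of the 65 replication-dependent genes ran from 129.9 CPM in *fust-1* B to 266.8 CPM in *tdp-1; ceh-14* C, a ratio of 2.05. That of the replacement genes ran from 546.6 CPM in *tdp-1* C to 801.9 CPM in *fust-1; ceh-14* B. Within the replication-dependent class, the 3 genes with an intron and UTRs, mainly *his-37* and *his-41*, summed to 80.0 to 152.0 CPM per library. The 62 single-exon genes of the class summed to 45.9 to 114.9 CPM.

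The comparison of each mutant with wild type asks whether loss of the transcription factor or of an RNA-binding protein moved these mRNAs. The main edgeR fits leave the replicate letter out. They called no histone gene at an adjusted p of 0.05 in any of the 5 comparisons, which all share the wild-type libraries. Few genes of any kind were called there. In *ceh-14* 31 members passed the filter on low counts, and 0 were called beside 0.092% of all genes tested. In *fust-1* it was 0 of 31 beside 0.0184%. In *tdp-1* it was 0 of 33 beside 0.128%. For *fust-1; ceh-14* it was 0 of 28 beside 0.351%, and in *tdp-1; ceh-14* it was 0 of 39 beside 0.12%. With the replicate letter as a block, edgeR called 1 of 37 members in *tdp-1* (*his-74*, 2.70% beside 5.56% of all genes) and 2 of 41 in *tdp-1; ceh-14* (*his-40* and *his-38*, 4.88% beside 3.47%), and 0 in the other mutants. DESeq2 called *his-74* in *tdp-1* (1 of 35 members, beside 5.1% of all genes), *his-40* in *tdp-1; ceh-14* (1 of 50, beside 0.704%) and no other member. At an unadjusted p under 0.05 there were 0 members in *ceh-14* beside 4.03% of all genes, 2 in *fust-1* (6.45% beside 2.05%) and 1 in *fust-1; ceh-14* (3.57% beside 8.83%). There were 7 in *tdp-1*, 21.2% of those tested beside 19.2% of all genes, and 9 in *tdp-1; ceh-14*, 23.1% beside 7.72%. The members that failed the filter, 34 to 45 per comparison, are mostly copies with shared names, so these counts describe the better counted genes and not the whole family. The filter was applied in each comparison, and a gene near the limit can pass through the mutant libraries alone.

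**Figure D2:**
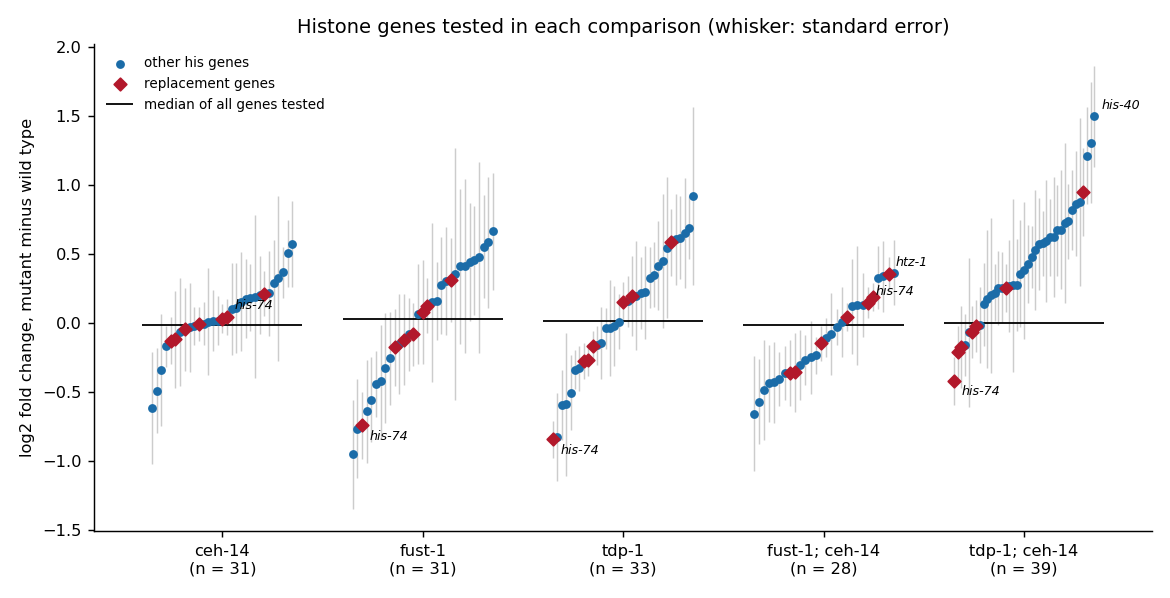
Log2 fold change against wild type (y axis) of the histone genes tested in each of 5 mutants (x axis, n is the number of genes tested). Points are genes with their standard error, diamonds are replacement genes and the horizontal line is the median of all genes tested. *his-74* is the lowest diamond in *fust-1*, *tdp-1* and *tdp-1; ceh-14*, and 31 of the 39 genes lie above 0 in *tdp-1; ceh-14*. The genes tested differ between mutants, since the filter on low counts was applied in each comparison.

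A single F test over the 6 genotypes called 2 of the 43 members tested, 4.65%, beside 4.63% of all genes tested. The 2 genes were *his-74* and *his-5*. At an unadjusted p under 0.05 there were 14 members, 32.6% beside 20.5% of all genes. The count called ran from 1 to 10 over the alternatives, with 5 without *fust-1* C (11.4% beside 5.94% of all genes).

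*his-74* encodes an H3.3 protein and was the member that differed most clearly among genotypes. In wild type it stood at 126.7, 127 and 164.5 CPM in replicates A, B and C, and in *ceh-14* at 142.2, 146.4 and 136.8 CPM. In *fust-1* it stood at 100.6, 83.9 and 61.2 CPM, and in *tdp-1* at 77.0, 82.1 and 73.4 CPM. In both single mutants of an RNA-binding protein every library lay below every wild-type and every *ceh-14* library. The double mutants did not match each other. In *fust-1; ceh-14* the gene stood at 145.7, 156.4 and 150.5 CPM, a range inside that of wild type, and *tdp-1; ceh-14* held 102.6, 95.8 and 113.6 CPM, below all wild-type libraries and above all *tdp-1* libraries.

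Over the genotypes *his-74* had an adjusted p of 0.00349 (edgeR quasi-likelihood F test, Benjamini-Hochberg over all genes). It was called with each of the 18 libraries left out in turn, with adjusted p from 0.00100 to 0.0194. Against wild type alone, the log2 fold change in *tdp-1* was -0.84 (standard error 0.13, adjusted p = 0.0761), which is short of the threshold. A fit with the letter of the replicate as a block gave -0.84 with an adjusted p of 0.00722, and DESeq2 gave -0.85 with 7.19e-05. Leaving out wild type B also gave a call, at -0.91 with an adjusted p of 0.0311. That fit called 6.64% of all genes, where the main fit called 0.128%. Within each letter the *tdp-1* library was lower than its wild-type counterpart, with log2 differences of -0.72 (A), -0.63 (B) and -1.16 (C).

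In *fust-1* the log2 fold change of *his-74* was -0.75, with a standard error of 0.25 and an edgeR adjusted p of 0.9997. Without *fust-1* C, the library that stood apart in its markers, it was -0.57. In *tdp-1; ceh-14* it was -0.42 (standard error 0.18, adjusted p = 0.641), and in *ceh-14* and *fust-1; ceh-14* it was 0.04 and 0.15 (standard errors 0.13 and 0.12). The interaction term, the part of a double mutant's level that adding the effects of its single mutants on the log2 scale does not give, was 0.87 for *fust-1* with *ceh-14* (standard error 0.26, unadjusted p = 0.00604, edgeR adjusted p = 1) and 0.40 for *tdp-1* with *ceh-14* (standard error 0.18, adjusted p = 0.445 from edgeR). Neither passed the threshold. Over all members, 0 of 36 and 0 of 45 tested were called in the 2 interactions, beside 0.0237% and 0.0405% of all genes, and DESeq2 called 0. At an unadjusted p under 0.05 there were 1 and 6 members, 2.78% beside 1.83% of all genes and 13.3% beside 11.2%.

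**Figure D3:**
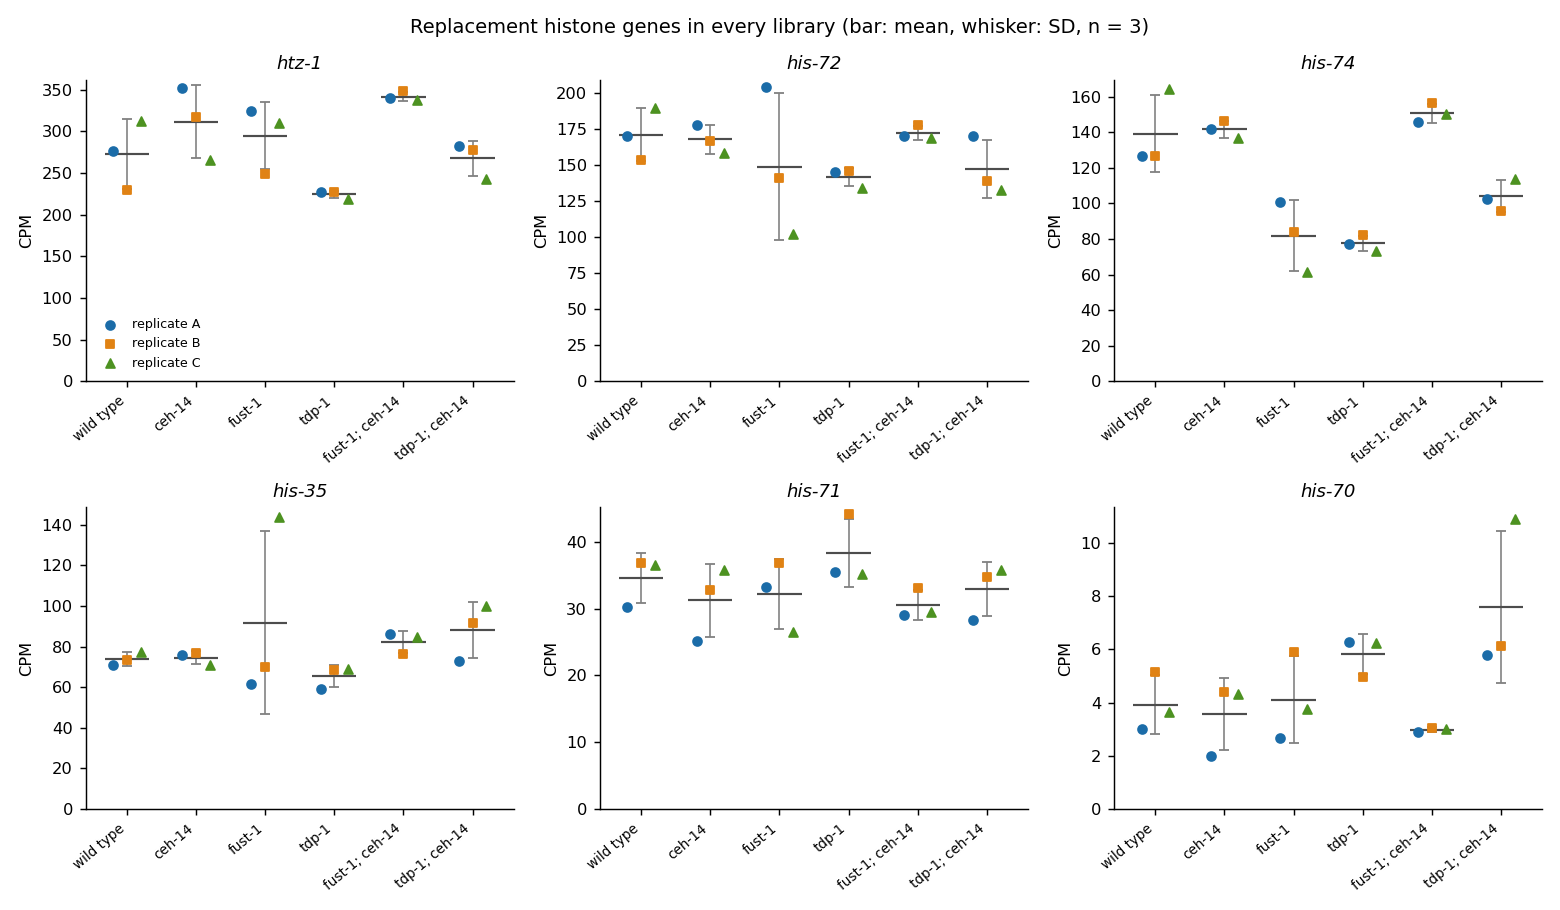
CPM of 6 replacement histone genes (y axis, from 0) in every library by genotype (x axis), with the replicate letter as symbol, the mean as a bar and the SD as a whisker (n = 3). *his-74* lies between 61.2 and 100.6 CPM in *fust-1* and between 73.4 and 82.1 in *tdp-1*, all below the lowest wild-type library at 126.7.

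The share of *his-74* within the 5 H3.3 genes was steadier among replicates than its level. It was 38.4%, 39.4% and 41.7% in wild type and 40.9%, 41.8% and 40.8% in *ceh-14*. In *fust-1* it was 29.6%, 31.4% and 31.5%, with *fust-1* C at the level of *fust-1* B, and in *tdp-1* it was 29.2%, 29.6% and 29.5%. The 6 libraries of the single RNA-binding protein mutants thus lay between 29.2% and 31.5%, below all wild-type libraries. In *fust-1; ceh-14* the share was 41.9%, 42.2% and 42.8%, above all wild-type libraries by a small margin, and in *tdp-1; ceh-14* it was 33.5%, 34.8% and 38.8%, which overlaps wild type. The two-sided exact permutation p against wild type was 0.1 for *fust-1*, *tdp-1* and *fust-1; ceh-14*, the smallest that 3 libraries against 3 allow, 0.2 for *tdp-1; ceh-14* and 0.3 for *ceh-14*. This measure was chosen after the levels had been seen.

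Of the other H3.3 genes, *his-72* had means that split the genotypes as those of *his-74* did, by less and with overlap among libraries. Its means were 172.0 (*fust-1; ceh-14*), 171.0 (wild type) and 167.6 CPM (*ceh-14*), against 148.8 (*fust-1*), 146.9 (*tdp-1; ceh-14*) and 141.6 (*tdp-1*). The place of *fust-1* in this split rests on *fust-1* C. Its log2 fold change of *his-72* was -0.18, and 0.04 without that library. The means of *his-71* and *his-70* did not split in this way. *his-72* stood at 170.3, 153.2 and 189.6 CPM in wild type, at 145.1, 145.6 and 134.2 in *tdp-1*, and at 203.7, 140.6 and 102.2 in *fust-1*. In *tdp-1* it was below all wild-type libraries by a small margin (log2 fold change -0.27 with a standard error of 0.12, edgeR adjusted p = 0.254), and the *fust-1* libraries spread over both sides of wild type. *his-71* stood at 30.3, 36.9 and 36.6 CPM in wild type and at 35.5, 44.2 and 35.2 in *tdp-1*, with overlap. The 5 H3.3 genes together summed to 349 ± 39.5 CPM in wild type, 263.5 ± 13.9 in *tdp-1* and 267.3 ± 73.2 in *fust-1* (mean ± SD, n = 3). The *fust-1* sums were 340.4, 267.4 and 194.0 CPM in A, B and C, and those of wild type 330.4, 322.3 and 394.4.

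*his-70*, the single-exon H3.3 gene, went the other way in the *tdp-1* genotypes, short of the threshold. It stood at 2.99, 5.14 and 3.64 CPM in wild type, at 6.28, 4.98 and 6.24 in *tdp-1*, and at 5.78, 6.12 and 10.9 in *tdp-1; ceh-14*. The last 3 lie above all wild-type libraries (log2 fold change 0.95 with a standard error of 0.32, edgeR adjusted p = 0.641), and those of *tdp-1* overlap them (0.58, standard error 0.24, adjusted p = 0.245). *his-69* had 0 to 0.515 CPM per library, too few counts to order the genotypes, and it passed the filter only in the fits that take more than 2 genotypes.

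*htz-1* stood at 276.7, 229.1 and 312.8 CPM in wild type and at 339.9, 348.0 and 337.2 CPM in *fust-1; ceh-14*, above all wild-type libraries (log2 fold change 0.36 with a standard error of 0.12, edgeR adjusted p = 0.479). In *tdp-1* it stood at 226.7, 227.5 and 219.3 CPM, below all wild-type libraries, the nearest of which was at 229.1 (-0.28, standard error 0.13, adjusted p = 0.286). Its adjusted p over the genotypes was 0.124 in the main edgeR fit. DESeq2 called *htz-1* over the genotypes, in a fit that called 13.8% of all genes. *his-24*, the linker histone H1.1 gene, stood at 5.51, 11.8 and 8.60 CPM in wild type, a range that overlapped every mutant. *his-35* stood at 70.7, 73.3 and 77.5 CPM in wild type and 61.6, 70.1 and 143.7 in *fust-1*, so that its mean of 91.8 CPM in *fust-1* rests on replicate C.

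*his-5*, a single-exon H4 gene with 606 counts in all, was the other member called among genotypes (adjusted p = 0.0305 from edgeR). It stood at 0.518, 0.677 and 0.422 CPM in wild type, at 0.295, 0.391 and 0.360 in *fust-1* and at 0.302, 0.309 and 0.502 in *fust-1; ceh-14*. In *tdp-1* it stood at 0.763, 1.001 and 0.759 CPM and in *tdp-1; ceh-14* at 0.967, 0.870 and 0.777. Both *tdp-1* genotypes lay above all wild-type libraries and *fust-1* below them. The call was lost when any of 9 libraries was left out (wild type A, *fust-1* A, *tdp-1* A, B or C, *fust-1; ceh-14* A or B, *tdp-1; ceh-14* A or B), with adjusted p of at most 0.0999, and with no filter on low counts, at 0.0636.

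Its neighbour *his-6* (H3), 236 bases away and transcribed in the other direction, stood at 1.34, 0.734 and 1.16 CPM in wild type and 0.625, 0.586 and 0.687 in *fust-1* (adjusted p = 0.0604 over the genotypes). *his-32* (H3) stood at 1.48, 1.07 and 1.11 CPM in wild type and 0.550, 0.556 and 0.968 in *tdp-1*, without overlap (log2 fold change -0.83 with a standard error of 0.32, edgeR adjusted p = 0.225). *his-68* (H2A), which is counted much more deeply, stood at 13.8, 11.9 and 14.3 CPM in wild type, at 11.04, 10.3 and 10.2 in *tdp-1*, and at 12.9, 17.6 and 16 in *tdp-1; ceh-14*. None of these genes passed over the genotypes in the main edgeR fit. DESeq2 called 10 of 50 members there (20% beside 13.8% of all genes) and the fit with the replicate letter as a block called 8 of 43 (18.6% beside 15.3%), with *his-74*, *his-5*, *his-6*, *his-32*, *his-40*, *his-61* and *his-70* in both.

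*tdp-1; ceh-14* was the genotype in which the histone genes tested leaned most to 1 side. Of its 39 members tested, 31 had a positive log2 fold change, with a median of 0.38 over all members and 0.50 over the 32 replication-dependent ones, where all genes tested had a median of 0.00. In the other comparisons the median of the members was 0.03 (*ceh-14*), 0.08 (*fust-1*), 0.15 (*tdp-1*) and -0.13 (*fust-1; ceh-14*). The filter on low counts was applied in each comparison separately, so the members tested differ, from 28 to 39 of them. A gene near the limit can pass through the mutant libraries alone, which can push the number of positive values and the median up. That effect was not tested. The summed level of the 62 single-exon replication-dependent genes was 80.6, 81.3 and 114.9 CPM in *tdp-1; ceh-14*, above the 57.9, 56.9 and 61.1 CPM of wild type. Outside this genotype only *fust-1* C, at 93.9 CPM, passed 70.

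**Figure D4:**
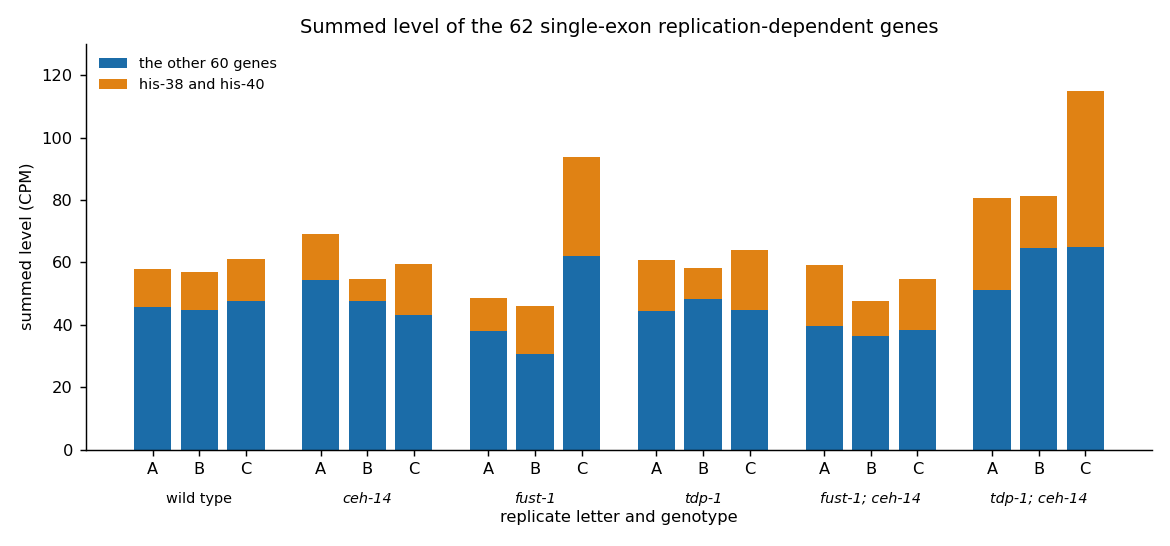
Summed CPM of the 62 single-exon replication-dependent histone genes (y axis, from 0) in each of the 18 libraries (x axis), with the part due to *his-38* and *his-40* on top. The 3 libraries of *tdp-1; ceh-14* lie at 80.6, 81.3 and 114.9 CPM and *fust-1* C at 93.9, and the other 14 lie between 45.9 and 68.9.

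The H4 gene *his-38* and the H3 gene *his-40*, the divergent pair on X, gave 57.6% of this difference between the means. The part varied among the letters, at 75.7% in A, 18.2% in B and 67.9% in C, and it was 46.5% without *tdp-1; ceh-14* C. *his-40* stood at 4.93, 4.66 and 4.96 CPM in wild type and at 12.4, 7.20 and 21.9 in *tdp-1; ceh-14*, without overlap. *his-38* stood at 7.38, 7.48 and 8.54 CPM in wild type and at 17.1, 9.38 and 28.2 in *tdp-1; ceh-14*, again without overlap. The log2 fold changes were 1.49 for *his-40* (standard error 0.36, adjusted p = 0.433 from edgeR) and 1.21 for *his-38* (standard error 0.35, adjusted p = 0.641). With the replicate letter as a block both were called, at 1.35 (adjusted p = 0.00746) and 1.08 (adjusted p = 0.0252). Without *tdp-1; ceh-14* C, the library with the highest level of both, they were 1.03 and 0.78, and neither was called. From library to library the ratio of *his-40* to *his-38* in CPM ran only from 0.526 to 0.818.

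Markers of gametes were read beside this result. The summed level of 6 sperm genes (*msp-3*, *msp-31*, *spe-9*, *spe-11*, *gsp-3* and *gsp-4*) was 403.6 to 658.5 CPM in *tdp-1; ceh-14*, with the highest value in replicate C, and 253.6 to 428.6 in wild type, so that the ranges overlap. All 6 had a positive log2 fold change there, with a median of 0.63, and 0 of the 6 were called. In *tdp-1* all 6 were positive too (median 0.33, 0 called) and summed to 417.6 to 426.8 CPM, while the single-exon histone sum stood at 60.9, 58.1 and 64.0 CPM, near wild type. The sperm sum was 549.0 CPM in *fust-1* C and 247.2 and 404.9 in the other *fust-1* libraries. The 4 oocyte markers summed to 1187 to 1725 CPM in *tdp-1; ceh-14* and to 1357 to 2174 in wild type. The part of gamete or body markers in the histone result was not tested.

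The replicate letter, given in the labels without a statement of what it marks, was tested in the same way as genotype. The F test over letters, with genotype in the model, called 4 of the 43 members tested, 9.30%, beside 26.4% of all genes tested. These 4 were *his-40*, *his-38*, *his-37* and *his-3*, 2 H4 genes, an H3 gene and an H2A gene. The share of members called lay below the share of all genes, and this difference was not tested.

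*his-40* had the lowest adjusted p over the letters (0.0146). Its 6 libraries ran from 4.31 to 12.4 CPM in letter A (median 5.93), from 2.88 to 7.20 in letter B (median 4.46) and from 4.96 to 21.9 in letter C (median 7.47). Letter C was above letter B in 6 of 6 genotypes, although the ranges overlap. The log2 difference from letter A was -0.49 for B and 0.52 for C. *his-38* had the same order, with medians of 9.56, 7.14 and 10.9 CPM (adjusted p = 0.0268), and C was above B in 6 of 6 genotypes as well.

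*his-37* had another order, with medians of 57.2, 64.6 and 70.7 CPM in letters A, B and C (adjusted p = 0.0360), and C was above A in 6 of 6 genotypes. Its highest values were 112.7 CPM in *fust-1* C and 117.7 in *tdp-1; ceh-14* C, and no other library passed 79.7. *his-3*, with 1532 counts in all, had medians of 1.16, 1.63 and 1.75 CPM (adjusted p = 0.0362), and B was above A in 6 of 6 genotypes. *his-24* came next with an adjusted p of 0.0623, and B was above A in 6 of 6 genotypes for it too.

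The call of *his-40* held with each of the 18 libraries left out, at an adjusted p of at most 0.0389. Those of the other 3 did not. *his-38* was called in 10 of the 18 leave-one-out fits and lost without wild type A, *ceh-14* B, *fust-1* C, *tdp-1* B, *fust-1; ceh-14* B or *tdp-1; ceh-14* A, B or C (adjusted p of at most 0.0672). *his-37* was called in 9 and lost without wild type A or C, *ceh-14* A or B, *fust-1* A or C, *tdp-1* A, or *tdp-1; ceh-14* A or C (at most 0.0976). *his-3* was called in 8 and lost without wild type A or B, *ceh-14* B, *fust-1* A, *tdp-1* A or B, *fust-1; ceh-14* A or B, or *tdp-1; ceh-14* A or C (at most 0.102).

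**Figure D5:**
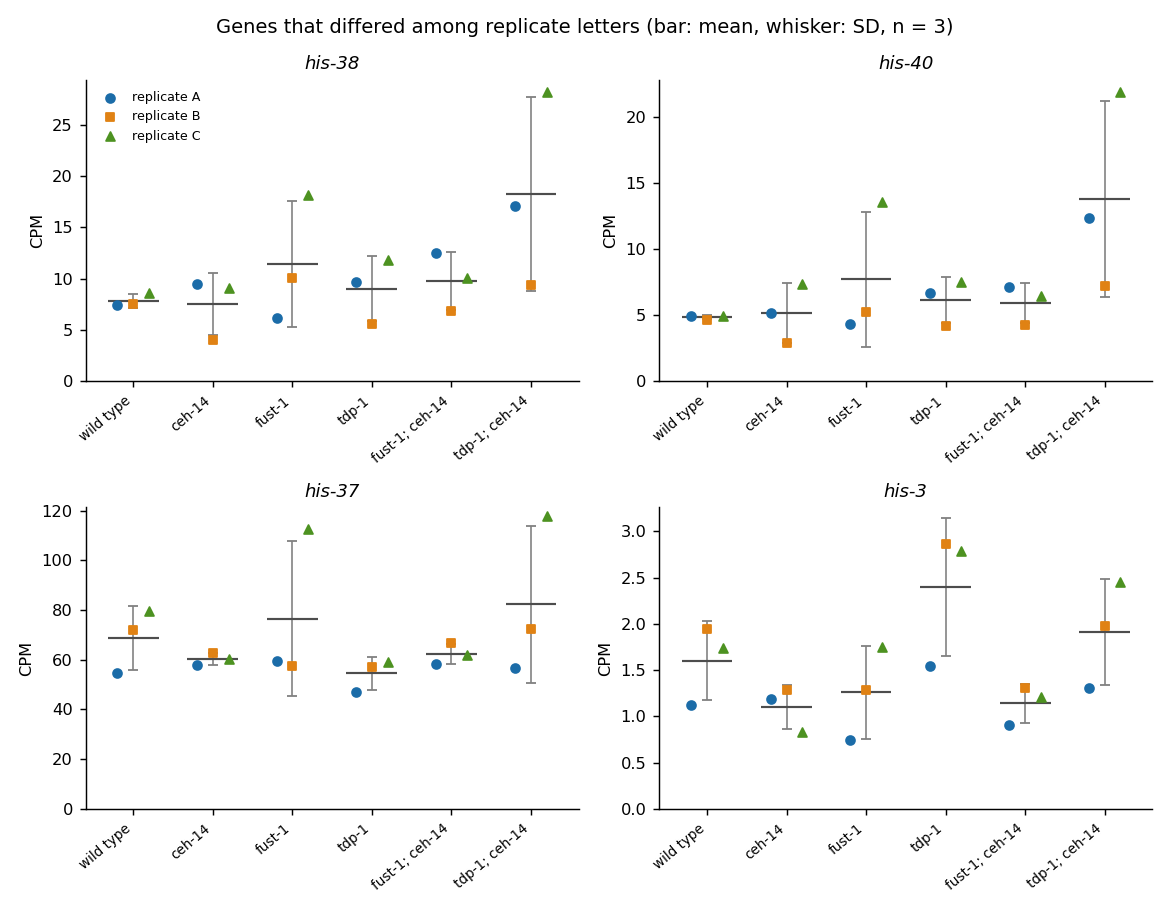
CPM of the 4 histone genes called among replicate letters (y axis, from 0) by genotype (x axis), with the letter as symbol, the mean as a bar and the SD as a whisker (n = 3). For *his-38* and *his-40* replicate C lies above replicate B in all 6 genotypes, and the highest library is *tdp-1; ceh-14* C at 28.2 and 21.9 CPM.

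Several tissue markers differed among the letters at the same time. *myo-2*, a pharyngeal muscle myosin, stood at 86.5 to 132.5 CPM in the 6 libraries of letter A and at 4.69 to 36.3 in the 12 of B and C, without overlap. The 6 sperm markers were all called among letters, as were the muscle myosins *myo-3* and *unc-54*, in a test that called 26.4% of all genes. In the germline list 0 of 6 markers were called and in the neuron list 0 of 2. The oocyte list had 1 of 4 called, and the intestine and epidermis lists had 1 of 2 each. The part of these differences in the histone levels was not tested.

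*fust-1* C and *tdp-1; ceh-14* C shared high levels of several single genes beyond the divergent pair. *his-60* (H4) stood at 15.6 CPM in *fust-1* C and 12.7 in *tdp-1; ceh-14* C, where wild type held 6.94 to 7.91. *his-41* (H2B) did not share this, with its lowest level of all libraries in *fust-1* C (16.01 CPM, where wild type held 33.5 to 43.8). *his-35* and *his-41* are neighbours on V and were at opposite extremes in that library, since *his-35* had its highest level there (143.7 CPM). *his-72* and *his-74* were at their lowest in it, at 102.2 and 61.2 CPM.

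Genes that serve histones were compared as a list. It holds 30 genes for histone mRNA 3′ ends, histone chaperones, H1-like proteins and variant histones, of which 29 were matched. Of them 28 or 29 were tested per comparison, and edgeR called 1, *hil-2*, an H1-like gene. It rose in *fust-1; ceh-14* (adjusted p = 0.0491, 3.57% of 28 beside 0.351% of all genes). It also differed among genotypes (adjusted p = 0.0300, 3.45% of 29 beside 4.63% of all genes). No other gene of the list was called against wild type, and 3 were called among letters (*htas-1*, *spt-16* and *ego-1*, 10.3% of 29 beside 26.4% of all genes). *cdl-1*, the stem-loop binding protein that acts on the 3′ ends of replication-dependent histone mRNA, stood between 109.5 CPM in *tdp-1; ceh-14* C and 246.1 in *ceh-14* A. The library *tdp-1; ceh-14* C was also the lowest of the 18 for the oocyte genes *oma-1*, *oma-2* and *rme-2* and the germline genes *gld-1*, *glh-1* and *htp-3*. The other listed markers of these types were not lowest there. The germline genes *him-3* (169.2 CPM) and *syp-1* (77.5 CPM) lay above their medians over all libraries, 113.4 and 70.85. *pgl-1* (451.6 CPM) and the oocyte gene *puf-5* (459.4 CPM) lay below theirs, 522.6 and 591.9.

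A list of 22 S phase genes (replication licensing, DNA polymerase and nucleotide synthesis), 21 of them matched and tested, had 0 called in each of the 5 comparisons with wild type. Its median log2 fold change was -0.26 in *tdp-1* (20 of 21 negative, all genes 0.01) and -0.19 in *tdp-1; ceh-14* (16 of 21 negative, all genes 0.00). In the other mutants it was 0.19 (*ceh-14*), 0.12 (*fust-1*) and 0.21 (*fust-1; ceh-14*). The S phase list and the replication-dependent histone genes tested (median 0.50) thus leaned to opposite sides in *tdp-1; ceh-14*, as a description of the 2 medians. The histone median is subject to the filter on low counts described above. *rnr-2*, a subunit of ribonucleotide reductase, was called among genotypes (edgeR adjusted p = 0.0282, 4.76% of the 21 beside 4.63% of all genes). Among letters 7 of the 21 were called (33.3% beside 26.4% of all genes).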

How the data were processed

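Reads from poly(A)-selected RNA had been mapped by the authors with STAR 2.5.3a and counted with HTSeq 0.9.1, and the deposited values are raw counts per gene for 18 libraries (WBcel235). The strand setting and the handling of reads at several positions are not given in the sources used here. Unassigned records were not used: 0.461% to 0.738% overlapped no gene, 1.87% to 2.75% several genes, and 5.89% to 12.2% had several positions. Symbols came from RefSeq by sequence name, since 22 members carry another copy's name in Ensembl, and gene models from the Ensembl annotation. The members and lists were chosen with earlier results of these data known.

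Each comparison used edgeR 4.0.16 in R 4.3.3 (filterByExpr, TMM, quasi-likelihood) with p-values adjusted over all genes tested and called under 0.05. The tests were tried on simulated data, where 93% to 100% of 200 genes changed 4-fold were recovered, with 8 to 14 false calls per fit. The simulation changed only genes above a count limit, with the same spread for every gene and no letter effect. It does not measure the power for smaller changes or for genes with few counts. DESeq2 1.42.0, its size factors, no filter, the replicate block, 1 fit of all libraries and leaving out each library (90 fits) were alternatives. Interactions were added after seeing the data. Named genes were the 8 replacement genes, the 3 highest replication-dependent genes per core histone, called members and the 5 lowest p among genotypes and among letters. *his-25*, *his-26*, *his-39*, *his-46*, *his-57*, *his-67* and *his-73* fall outside this rule and were chosen after their values were seen. No 2 libraries were alike (chi-square over degrees of freedom at least 24.0 within a genotype). Deviations from the genotype mean correlated over 0.1 between same-letter libraries of a mutant and wild type in 14 of 15 pairs (-0.17 to 0.65). The letter was taken to pair libraries except in *fust-1; ceh-14*. The main fits against wild type and over genotypes leave it out, and the calls of the fits with the letter as a block are given beside them. Counting intervals and limits cover counting error only.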

Additional observations from a re-analysis of the deposited data

Results flagged for a closer look

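On loss of *fust-1*, *his-74* lay on opposite sides of the control mean in the 2 backgrounds, and the second difference was small. Every *fust-1* library lay below the wild-type mean, with a log2 ratio of means of -0.77. Every *fust-1; ceh-14* library lay above the *ceh-14* mean, with a ratio of 0.09, and their ranges overlapped (145.7 to 156.4 against 136.8 to 146.4 CPM). The ratios differ by 0.86, and the interaction test of this difference gave an adjusted p of 1 with edgeR, so no difference between the backgrounds was called. *his-60*, an H4 gene, met the same criterion on loss of *tdp-1*, with ratios that differ by 0.53. Its *tdp-1* libraries (7.01 to 7.26 CPM) lay within the wild-type range of 6.94 to 7.91, a log2 ratio of -0.05. Its *tdp-1; ceh-14* libraries (7.98 to 12.7) overlapped those of *ceh-14* (6.55 to 8.42), a ratio of 0.49. Its interaction was not called.

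Records at more than 1 position made up 8.23% on average in *ceh-14* and 8.69% in *fust-1*, where wild type held 5.89% to 7.90%. Each average rests on 1 library. *ceh-14* A stood at 10.6%, with B and C at 7.29% and 6.80%, and *fust-1* C stood at 12.2%, with A and B at 7.95% and 5.92%.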

How the results depend on the processing

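In *ceh-14*, *fust-1* and *fust-1; ceh-14*, 0 members were called under each alternative run. In *tdp-1*, 1 member (*his-74*) was called by DESeq2, with no filter, with the replicate block and in 1 fit of all 18 libraries, and 0 to 1 with a library left out, the 1 without wild type B. These fits called 5.1%, 1.54%, 5.56%, 0.342% and 6.64% of all genes, in that order, beside 0.128% in the main fit. In *tdp-1; ceh-14*, DESeq2 called 1 member and the fit with no filter called 1 (*his-40* in both), and the replicate block called 2. The shares of all genes called were 0.704%, 0.386% and 3.47%, in that order. Among genotypes 2 members were called, against 10 by DESeq2 (13.8% of all genes tested), 1 with no filter, 8 with the replicate block (15.3% of all genes) and 1 to 5 with a library left out (5 without *fust-1* C). Among letters 4 were called under each tool and filter, and 1 to 5 with a library left out (5 without *tdp-1* C, 1 without wild type A, *ceh-14* B, or *tdp-1; ceh-14* A or C). The cause of these shifts was not tested. Of 110 fold changes against wild type of the 23 named members, 38 changed sign under at least 1 alternative, none of them called in the reported fits and 35 of them under 0.25 in size on the log2 scale. Among them were *his-74* in *ceh-14* (-0.0095 without wild type A and -0.016 without wild type B, in a range of -0.016 to 0.19), *his-37* in *tdp-1; ceh-14* (0.25, and -0.07 without *tdp-1; ceh-14* C), and *his-60* (0.30, and -0.29) and *his-62* (0.44, and -0.07) in *fust-1* without *fust-1* C. The ratio of the highest to the lowest summed replication-dependent level was 2.05 with TMM, 2.02 on library totals and 1.95 with the size factors of DESeq2, and the latter shifted the median of all genes by at most 0.02 on the log2 scale. The replicate block changed no other call against wild type.

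Copies with shared names can limit what the counts show of the single-exon class, and the size of this effect was not tested. A floor of 3 counts is 0.0250 to 0.153 CPM per library, so genes such as *his-5* and *his-69* rest on few counts.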

Other observations

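*his-73* and *his-39*, whose histone family is not clear from their short models, had 811 and 4 counts. *his-73* overlaps *W09H1.4* on the same strand, and it stood lowest in letter A with a median of 0.647 CPM, at 0.813 in B and 0.931 in C (adjusted p = 0.0866 among letters from edgeR).

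*his-67* (H4) lies beside *his-68* on chromosome I and stood at 1.72, 1.87 and 2.55 CPM in *tdp-1; ceh-14*, above the 0.967, 1.33 and 1.21 CPM of wild type. *his-46* (H4), a copy that shares its name with *his-56*, stood at 0.387, 0.265 and 0.455 CPM there and at 0.130, 0.198 and 0.106 in wild type. These wild-type values rest on 15, 7 and 2 counts, the last under the floor of 0.153 CPM. Neither gene passed the threshold against wild type. Over the genotypes *his-67* was called by DESeq2 (beside 13.8% of all genes) and by edgeR without *fust-1* C (adjusted p = 0.0209, beside 5.94%), but not in the main fit. Beyond the histones, *htas-1*, an H2A variant gene known from sperm, stood between 9.92 CPM in *ceh-14* A and 48.6 in *tdp-1; ceh-14* C, the same library that held the most *his-38* and *his-40*.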
